A study of Mus musculus with 36 samples.

Results

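A set of 40 genes characteristic of macrophages and other leukocytes was followed through 36 RNA-seq libraries of mouse cells, as a reading of the macrophage RNA in each culture. The genes were taken by symbol from a list chosen with earlier results of these data known. All 40 were found among the 20325 genes of the deposited tables. The study followed mouse embryonic fibroblasts (MEFs) during reprogramming to induced pluripotent stem cells and tested SGC0946, an inhibitor of the histone H3 lysine 79 methyltransferase DOT1L. The MEFs came from E13.5 embryos, so they are primary cultures of mixed embryonic tissue rather than a cloned line. All but the embryonic stem cells (ESCs) carried 2 copies of a Col1a1-locus cassette for Oct4, Klf4, Sox2 and c-Myc that doxycycline switches on, and 1 copy of the reverse tetracycline transactivator at Rosa26.

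The labels define 18 groups of 2 libraries. A timecourse compared untreated MEFs, cells after 2 days of doxycycline with DMSO or with SGC0946, and cells after 4 days of doxycycline with DMSO or with SGC0946 on days 0 to 2 (early), on days 2 to 4 (mid) or on days 0 to 4 (full). A sorting experiment separated cells at 3.5 days by FACS for the epithelial cadherin CDH1 on their surface, and the CDH1-positive and CDH1-negative fractions were kept on doxycycline with DMSO or SGC0946 until day 5.5. In a lentivirus experiment MEFs carried an empty virus or a virus expressing Cdh1, and were profiled without doxycycline or after 2 days of doxycycline with DMSO or SGC0946. The ESCs, the last group, had been depleted of feeder cells for 24 h. Irradiated feeder MEFs supported the reprogramming cells and ESCs, in medium with leukaemia inhibitory factor, whereas MEFs were kept in MEF medium, and feeder RNA cannot be told apart from that of the cells by these counts. Medium, feeders and doxycycline changed together between MEFs and reprogramming cells, so their shares in any difference cannot be told apart.

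Macrophages are phagocytes that in the embryo arise first from yolk sac progenitors and settle in nearly every tissue, where they clear dying cells. The receptor CSF1R carries their survival signal and is bound by CSF1 and IL-34, and the transcription factor PU.1, encoded by Spi1 (Sfpi1 in these files), drives most of their lineage genes. Their characteristic products include lysozyme, the complement C1q chains, scavenger and lectin receptors, and Fc receptors that signal through adaptors with ITAM motifs. Emr1 is the older symbol of Adgre1, the classic surface antigen of mouse macrophages, and is printed as in the files.

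The 250 bases before the annotated start of transcription were read for the genes with an entry in a RefSeq promoter table (GRCm38.p6), which held 27 of the 40. The letters GAGGAA, the purine-rich core bound by PU.1, were searched on both strands (TTCCTC on the printed strand). They occurred in 15 of the 27 genes (55.6%), compared with 25.9% of the 27025 genes in the table. A match is a run of letters and not a measured binding site. The 5 sequences below are shown because these genes stand for the patterns described further on: C1qb and Mrc1 passed their MEF level at day 4, Itgam was the lineage gene with the most calls towards higher values under inhibitor, Trem2 followed the mean of the set closely, and Mpeg1 was lowered most often by the inhibitor. Each is written 5′ to 3′ on the strand of the gene, with matches in capitals.
C1qb: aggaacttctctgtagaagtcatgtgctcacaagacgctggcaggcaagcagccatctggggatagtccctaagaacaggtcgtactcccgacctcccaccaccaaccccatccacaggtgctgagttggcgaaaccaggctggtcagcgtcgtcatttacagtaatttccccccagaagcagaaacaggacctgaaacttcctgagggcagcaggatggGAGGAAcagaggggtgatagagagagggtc
Mrc1: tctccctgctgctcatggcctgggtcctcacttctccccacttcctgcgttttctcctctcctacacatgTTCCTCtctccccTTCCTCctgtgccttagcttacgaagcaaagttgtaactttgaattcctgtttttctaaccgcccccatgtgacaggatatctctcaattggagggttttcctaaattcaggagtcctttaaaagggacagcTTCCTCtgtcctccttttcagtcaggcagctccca
Itgam: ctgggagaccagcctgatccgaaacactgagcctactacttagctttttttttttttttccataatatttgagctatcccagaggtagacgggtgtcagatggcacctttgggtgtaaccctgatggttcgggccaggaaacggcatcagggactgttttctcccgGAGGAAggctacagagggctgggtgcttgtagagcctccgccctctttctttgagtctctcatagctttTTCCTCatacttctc
Trem2: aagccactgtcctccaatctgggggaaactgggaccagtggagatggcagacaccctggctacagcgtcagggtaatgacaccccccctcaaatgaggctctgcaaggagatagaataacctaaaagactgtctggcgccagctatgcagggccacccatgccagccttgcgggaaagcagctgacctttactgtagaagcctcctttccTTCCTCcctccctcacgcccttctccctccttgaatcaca
Mpeg1: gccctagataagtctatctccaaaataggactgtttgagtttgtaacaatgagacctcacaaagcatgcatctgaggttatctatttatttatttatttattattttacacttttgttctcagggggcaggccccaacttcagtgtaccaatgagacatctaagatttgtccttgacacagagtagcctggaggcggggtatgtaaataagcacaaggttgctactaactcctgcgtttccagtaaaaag

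The C1qb window (chr4:136886201-136886450, minus strand) held 1 match, which begins 30 bases before the start. Mrc1 (chr2:14229164-14229413, plus strand) held 3 matches, all in the reverse orientation, of which the nearest begins 35 bases before the start. Itgam (chr7:128062390-128062639, plus strand) held 2, the nearer beginning 15 bases before the start, and Trem2 (chr17:48346151-48346400, plus strand) held 1 that begins 40 bases before it. The Mpeg1 window (chr19:12460520-12460769, plus strand) held none of these letters, nor did the window of Lyz2. The window of Fcer1g, which followed the mean of the set most closely, held none either.

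The total of expected counts per library ran from 32883668 to 50866706 in the timecourse, 34927901 to 43123011 in the sort, and 18534377 to 35852109 in the lentivirus and ESC libraries. CPM values, counts scaled to library size with TMM factors within each experiment, are given as replicate 1 and replicate 2, and comparisons between genes use TPM, which is per length. Nothing in the labels says whether the paired libraries are independent cultures, and p-values therefore measure only the spread between them, which may be technical. The Cdh1 virus raised Cdh1 from 0.412 and 0.486 CPM to 171 and 179 CPM in MEFs, and in the sort Cdh1 stood at 7.27 and 7.24 CPM in CDH1-negative and 46.6 and 46.0 CPM in CDH1-positive cells. The labels of 1 library conflict: replicate 2 of MEFs carrying the Cdh1 virus is a day 2 culture by its source field and a MEF culture by title and treatment. It was kept with the MEFs, and values without it are given below. Fibroblast markers were abundant in every MEF library (Col1a1, 8767 and 8956 CPM in untreated MEFs).

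Most markers of T cells, neutrophils, mast cells and erythroid cells stayed under 1 CPM in the 34 MEF and reprogramming libraries. The T cell receptor chain gene Cd3e peaked at 0.0231 CPM (1 count), the neutrophil gene S100a8 at 0.142 CPM, and the mast cell protease gene Cpa3 at 0.0712 CPM. The mast cell tryptase gene Tpsb2 and the haemoglobin gene Hbb-b1 were at 0 in all 34. By list, 8 of 10 T and NK cell genes, 5 of 6 B cell genes, 8 of 9 neutrophil genes, 6 of 8 mast cell genes and 7 of 7 erythroid genes stayed under 1 CPM in each of these libraries. The exceptions at or above 1 CPM were Lck (2.59 CPM at its highest), Cd8a, Cd22 (1.50 CPM), Ltf (2.04 CPM), Kit (6.93 CPM) and Ms4a2. Of the endothelial list, Pecam1 and Cdh5 peaked at 0.436 and 0.580 CPM, while Flt1 and Tek reached 108 and 83.1 CPM. Of the megakaryocyte and platelet list 4 of 7 genes reached 1 CPM, namely Ppbp (66.2 CPM at its highest), Gp1bb (7.51 CPM), Itga2b (6.35 CPM) and Gp1ba (2.00 CPM), and the list summed to between 8.11 and 74.3 CPM.

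Untreated MEFs contained macrophage transcripts, and lysozyme was the most abundant of the set per length. Lyz2, the lysozyme of macrophages, had 257 and 265 TPM in the MEF libraries of the timecourse, against 43.0 and 41.3 for C1qb, 41.5 and 39.2 for Tyrobp and 32.3 and 32.1 for C1qa, which ranked next. Ccr2, the receptor that draws monocytes from blood, was the lowest of the 40 per length, with 0 and 1 counts. The empty-virus MEFs had a higher level than untreated MEFs, with a summed level of 2001 and 2118 CPM over the 40 genes against 524 and 510 CPM. The experiments were scaled separately, and the difference was not tested. The timecourse libraries held a 20 ng spike-in, whereas the lentivirus libraries are not described as paired-end or spiked. The part of preparation in this difference cannot be told apart. Lyz2 made up 53.5 to 55.9% of that sum in the empty-virus MEFs and 27.5 to 27.9% in the untreated ones. Lyz1, a close paralog that shares reads with Lyz2, had 7.00 and 7.48% of the counts assigned to the pair in MEFs, and the split between them rests on RSEM's model.

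**Figure D1:**
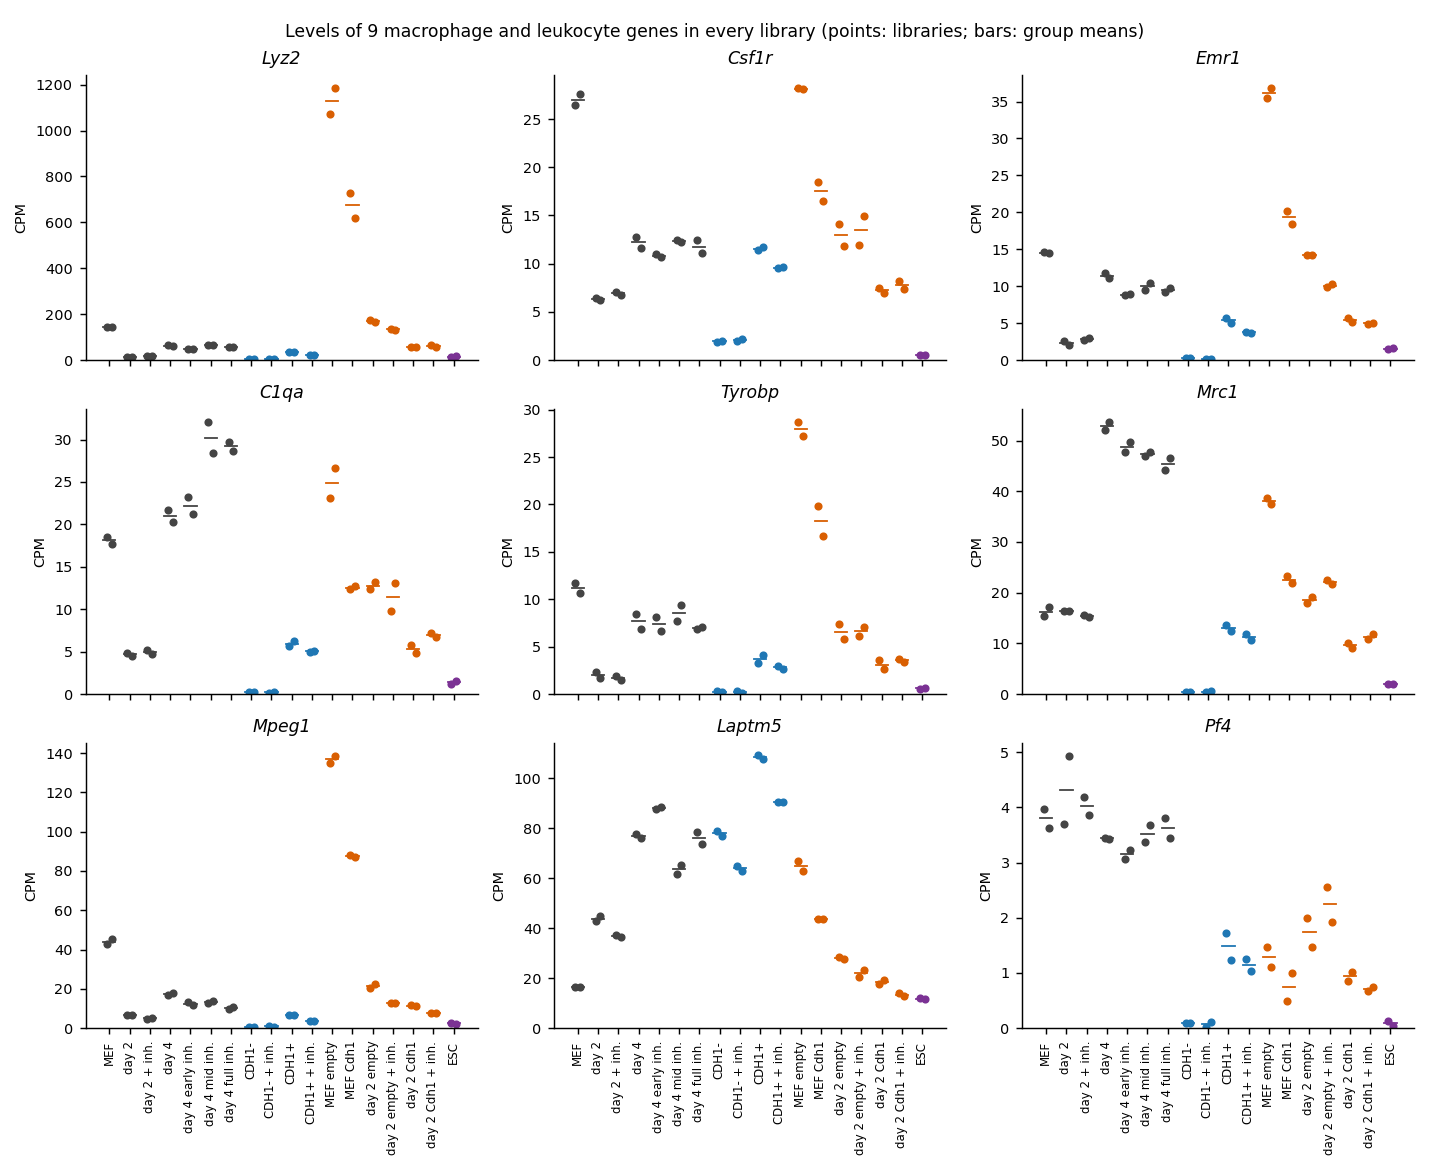
Level in CPM (vertical axis, from 0, a scale of its own in each panel) of 9 genes in all 36 libraries, by group; points are libraries and bars are group means. Grey marks the timecourse, blue the sort, orange the lentivirus experiment and purple the ESCs. Lyz2, Emr1, Tyrobp and Mpeg1 are highest in MEFs with the empty virus and lowest in CDH1-negative cells, while Laptm5 stays high in CDH1-negative cells.

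Nearly the whole set was lower in cells after 2 days of doxycycline than in untreated MEFs. Of 39 genes tested, 35 fell and 1 rose at day 2 (edgeR adjusted p under 0.05, where 34% of all 14473 genes fell and 40.4% rose), with a median log2 fold change of -1.84 against 0.06 over all genes. Fewer macrophages and less RNA of these genes per macrophage cannot be told apart in bulk RNA. At day 4 the set had come back in part. From day 2 to day 4, 36 of 39 rose and 1 fell (38.1% and 39.7% of all genes), with a median of 1.57. Against MEFs 22 were then still lower and 8 higher (41% and 41.2% of all genes). The summed level moved from 524 and 510 CPM in MEFs to 165 and 163 CPM at day 2 and 448 and 442 CPM at day 4.

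The 9 fibroblast markers moved with the first of these changes, as 9 of 9 fell at day 2 (median -2.48), and their sum went from 22520 and 22687 CPM to 6421 and 6650 CPM. From day 2 to day 4, 7 of the 9 rose and 1 fell, with a median of 0.39 against 1.57 for the macrophage genes. The fibroblast markers summed to 7335 and 7363 CPM at day 4, where 9 of 9 were still lower than in MEFs (median -1.81). Their part in the result was not tested.

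Among the lineage receptors, Csf1r, the CSF1 receptor, had 26.4 and 27.6 CPM in MEFs, 6.44 and 6.18 at day 2 and 12.8 and 11.7 at day 4. Its log2 fold change against MEFs was -2.10 ± 0.08 (SE), edgeR adjusted p = 1.7e-24 at day 2 and -1.14 ± 0.08 at day 4. Emr1 went from 14.6 and 14.5 CPM in MEFs to 2.56 and 2.08 at day 2 and 11.7 and 11.1 at day 4 (-0.35 ± 0.08 against MEFs at day 4). Both genes were lowest at day 2, with no overlap between groups, but Emr1 regained most of its level. Cx3cr1, the fractalkine receptor of tissue macrophages, fell most (4.89 and 5.00 CPM to 0.149 and 0.0463, log2 fold change -5.64 ± 0.32 (SE), edgeR adjusted p = 3.1e-19) and was still at 0.669 and 0.630 CPM at day 4.

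The pan-leukocyte phosphatase gene Ptprc (CD45) had 3.93 and 3.90 CPM in MEFs, 1.22 and 1.09 at day 2 and 3.02 and 1.94 at day 4. Itgb2, the common chain of the leukocyte integrins, had 6.18 and 7.32 CPM in MEFs, 1.64 and 1.71 at day 2 and 4.36 and 4.10 at day 4. The gene of its partner Itgam, integrin alpha M, fell less (-0.87 ± 0.10 at day 2). The tetraspanin gene Cd53 fell at day 2 (-1.15 ± 0.14) and at day 4 did not pass the test against MEFs (-0.16 ± 0.12 (SE), edgeR adjusted p = 0.221).

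Laptm5, a lysosomal membrane protein of blood cells, moved the other way. It had 16.6 and 16.5 CPM in MEFs, 42.6 and 44.7 at day 2 and 77.5 and 76.2 at day 4, so each step was a rise (1.40 ± 0.05 (SE), edgeR adjusted p = 7.3e-25 at day 2, and 2.22 ± 0.05 at day 4 against MEFs). It was the only gene of the 39 called higher at day 2. Per length it was the second of the set at day 4, with 63.6 and 62.9 TPM after Lyz2 with 123 and 120.5 TPM.

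The 3 complement chains fell together at day 2 and together passed their MEF level at day 4. C1qa had 18.5 and 17.7 CPM in MEFs, 4.85 and 4.47 at day 2 and 21.7 and 20.3 at day 4. C1qb had 24.2 and 22.3 CPM in MEFs, 7.22 and 6.94 at day 2 and 30.5 and 29.7 at day 4, and C1qc had 18.3 and 15.0 CPM in MEFs, 5.55 and 5.97 at day 2 and 26.3 and 25.9 at day 4. Their products assemble into C1q, which tags dying cells and immune complexes for uptake. The log2 fold changes at day 4 against MEFs were 0.21 ± 0.07 (SE), edgeR adjusted p = 0.00797 for C1qa, 0.37 ± 0.06 for C1qb and 0.65 ± 0.08 for C1qc.

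The scavenger and lectin receptors parted most widely. Mrc1, the macrophage mannose receptor, had 15.4 and 17.1 CPM in MEFs and 16.4 and 16.3 at day 2, a difference of 0.01 ± 0.06 that did not pass the test. It then rose to 52.1 and 53.7 CPM at day 4 (1.70 ± 0.06 (SE), edgeR adjusted p = 1.3e-27 against MEFs). Msr1, the class A scavenger receptor, fell from 23.8 and 22.5 CPM to 7.14 and 7.32 and remained at 8.56 and 7.72 at day 4, where its change since day 2 was 0.17 ± 0.09 (SE), edgeR adjusted p = 0.0885. Mrc1 and Msr1 are both scavenging receptors of macrophages, and at day 4 the first was above and the second below every MEF library.

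Clec4n, the lectin receptor dectin-2, and Siglec1, sialoadhesin, were also above MEFs at day 4 (1.64 ± 0.16 and 0.35 ± 0.12). Cd68, an endosomal glycoprotein, went from 16.8 and 15.5 CPM in MEFs to 4.28 and 4.47 at day 2 and 16.9 and 17.4 at day 4, which did not pass the test against MEFs (0.09 ± 0.08 (SE), edgeR adjusted p = 0.306). Cd14, the lipopolysaccharide co-receptor, had 8.31 and 8.36 CPM in MEFs, 2.31 and 2.34 at day 2 and 5.03 and 4.57 at day 4. The endosomal RNA sensor gene Tlr7 stayed low at day 4 (-1.90 ± 0.20).

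Of the Fc receptors and adaptors, all 6 fell at day 2. Tyrobp (DAP12) had 11.8 and 10.6 CPM in MEFs, 2.31 and 1.67 at day 2 and 8.41 and 6.90 at day 4. Fcer1g, the common Fc receptor gamma chain, had 7.63 and 6.79 CPM in MEFs, 1.42 and 1.50 at day 2 and 5.16 and 5.25 at day 4, and Trem2, a lipid receptor that signals through DAP12, had 9.93 and 7.91 CPM in MEFs, 1.24 and 1.18 at day 2 and 4.92 and 5.22 at day 4. At day 4 these 3 were still below MEFs, with log2 fold changes of -0.55 ± 0.11, -0.47 ± 0.11 and -0.82 ± 0.11. The inhibitory receptor Fcgr2b was above (0.91 ± 0.10 (SE), edgeR adjusted p = 8.9e-11), while the activating receptors Fcgr1 and Fcgr3 were below (-1.02 ± 0.23 and -0.35 ± 0.12). The Fcgr genes are close relatives, and reads that fit several of them were split by RSEM.

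The lysosomal and antimicrobial genes fell most at day 2, with a median of -2.75 over 7 genes, and 5 of 7 were still lower at day 4. Lyz2 went from 144 and 142 CPM in MEFs to 15.2 and 13.6 at day 2 and 63.2 and 61.5 at day 4 (-3.32 ± 0.05 (SE), edgeR adjusted p = 7.0e-39 at day 2). Mpeg1, the pore-forming perforin-2, went from 42.7 and 45.2 CPM in MEFs to 6.42 and 6.67 at day 2 and 16.6 and 17.7 at day 4. Neither regained its MEF level by day 4 (log2 fold changes -1.20 ± 0.04 and -1.36 ± 0.07). Ctss, the protease cathepsin S, had 23.6 and 21.1 CPM in MEFs, 3.58 and 2.59 at day 2 and 9.30 and 8.95 at day 4, and Cybb, the catalytic subunit of the phagocyte oxidase, had 4.87 and 5.42 CPM in MEFs, 0.970 and 0.764 at day 2 and 2.44 and 2.19 at day 4. Pld4, a lysosomal nuclease, fell by 3.15 on the log2 scale at day 2 and at day 4 did not pass the test (0.24 ± 0.14).

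Of the signalling and co-stimulation genes, Vav1, Coro1a, Aif1 and Cd84 fell at day 2 (log2 fold changes -1.92 ± 0.20, -1.78 ± 0.14, -2.74 ± 0.68 and -2.20 ± 0.16), and Cd86 did not pass the test (-0.80 ± 0.59). At day 4 Vav1, Coro1a and Cd84 were still lower than in MEFs, and Aif1 did not pass the test (0.64 ± 0.41). Pf4, a chemokine of platelets and some macrophages, moved little, with 3.98 and 3.63 CPM in MEFs, 3.71 and 4.93 at day 2 and 3.45 and 3.43 at day 4. It was the only gene to fall between day 2 and day 4 (-0.33 ± 0.14 (SE), edgeR adjusted p = 0.0303).

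**Figure D2:**
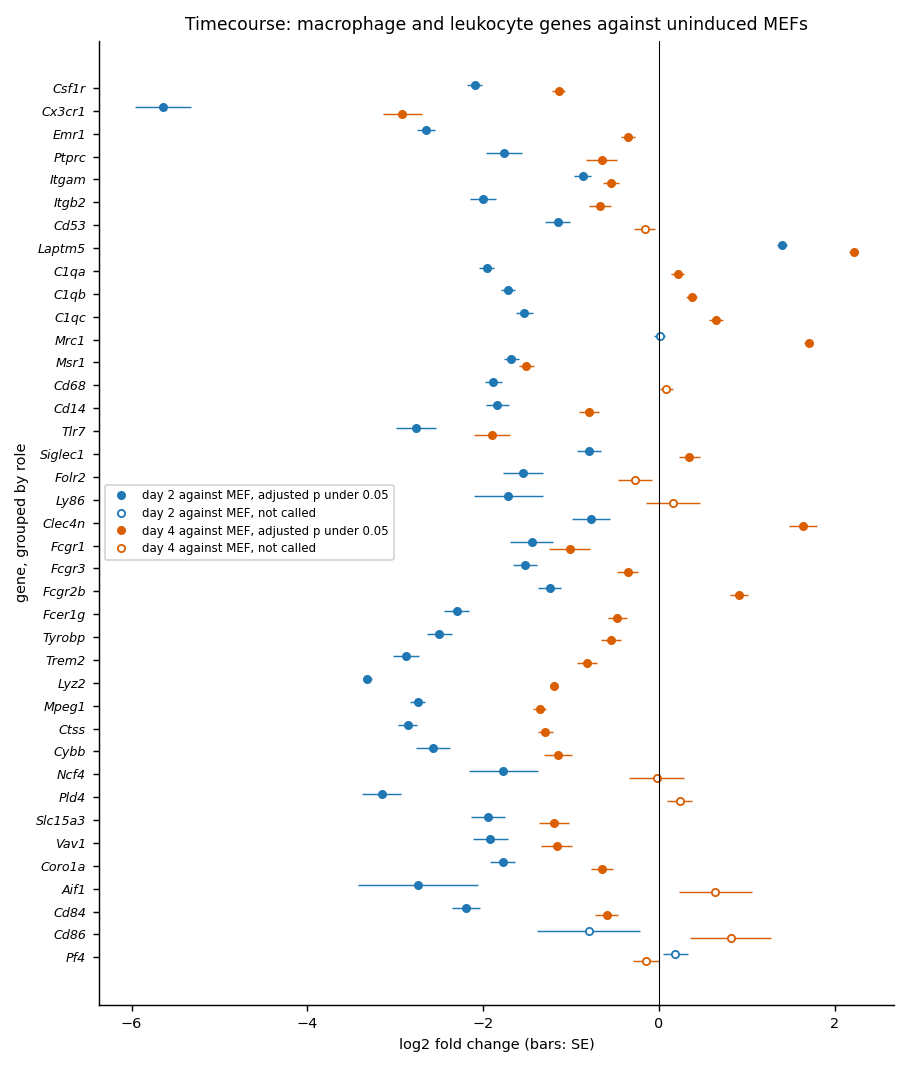
Log2 fold change (horizontal axis) of the 39 tested genes at day 2 (blue) and day 4 (orange) against untreated MEFs, with SE bars; filled points passed an adjusted p under 0.05. Blue points lie left of 0 except for Laptm5, Mrc1 and Pf4, and orange points of C1qa, C1qb, C1qc, Mrc1, Clec4n, Fcgr2b, Siglec1 and Laptm5 are filled and right of 0.

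The lentivirus cells gave separate libraries for the same 2 days of doxycycline. With the empty virus 33 of 40 genes fell and 1 rose at day 2 (32.7% and 33.4% of 15044 genes), with a median of -1.42, and with the Cdh1 virus 34 fell and 0 rose (32.6% and 33.4%), with a median of -1.85. Cd14 fell from 60.4 and 61.3 CPM to 4.96 and 5.36 with the empty virus (-3.56 ± 0.11 (SE), edgeR adjusted p = 1.3e-18), and Cd53 and Slc15a3, a lysosomal transporter, had log2 fold changes of -3.18 ± 0.11 and -3.98 ± 0.16. The gene called higher was Cx3cr1 (1.12 ± 0.23 (SE), edgeR adjusted p = 2.0e-04; 1.01 and 1.32 CPM in MEFs and 2.60 and 2.48 at day 2), which in the timecourse had fallen most. Laptm5, which rose in the timecourse, fell here from 66.8 and 62.7 CPM to 28.5 and 27.8 (-1.20 ± 0.08 (SE), edgeR adjusted p = 9.1e-13). Mrc1 fell too, from 38.6 and 37.5 CPM to 17.9 and 19.1. The differences between the 2 experiments were not tested, because they were fitted separately.

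At day 5.5 the fraction sorted as CDH1-negative at 3.5 days had far less of most of these transcripts than the CDH1-positive fraction. Differences present at the sort and changes in culture after it cannot be told apart. In the DMSO groups 35 of 36 tested genes were higher in CDH1-positive cells and 0 were lower (12.8% and 13.8% of 13968 genes), with a median log2 fold change of 3.53. Clec4n had 0 and 0 counts in the CDH1-negative and 18 and 19 in the CDH1-positive libraries, which is at least 5.64-fold higher taking 3 counts per library as the floor. With Clec4n at that bound the median is 3.37. Only 15 genes had 10 or more counts in each of the 4 libraries, and 15 of these 15 were called higher. The others could pass the filter through the CDH1-positive libraries alone, so their difference is in part set by the filter. The 4 genes under the filter were Ccr2, Ly86, Aif1 and Cd86.

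Mrc1 had 0.429 and 0.379 CPM in CDH1-negative and 13.6 and 12.5 in CDH1-positive cells, or 15 and 13 against 525 and 474 counts (5.00 ± 0.17 (SE), edgeR adjusted p = 9.4e-49). Written as negative against positive cells, C1qa had 0.257 and 0.204 CPM against 5.63 and 6.21, C1qb 0.286 and 0.525 against 9.22 and 8.35, and C1qc 0.343 and 0.321 against 6.33 and 6.71. All 4 were under 1 CPM in the negative cells and above 5 CPM in the positive ones. Msr1 had 0.544 and 0.321 CPM against 8.78 and 8.38, Emr1 0.286 and 0.204 against 5.71 and 4.99, and Csf1r 1.92 and 1.98 against 11.4 and 11.7. The log2 fold changes of these 3 were 4.30 ± 0.19, 4.43 ± 0.25 and 2.56 ± 0.13.

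Among the adaptors, Tyrobp had 0.315 and 0.175 CPM in CDH1-negative and 3.25 and 4.07 in CDH1-positive cells. Fcer1g had 0.114 and 0.0876 CPM against 2.14 and 1.32, and Trem2 0.372 and 0.175 against 2.51 and 2.83. Of the lysosomal genes, Lyz2 had 4.29 and 4.23 CPM against 32.8 and 35.2 (2.99 ± 0.08 (SE), edgeR adjusted p = 1.3e-57). The groups did not overlap for any of these. Mpeg1 had 0.601 and 0.584 CPM against 6.61 and 6.61, Ctss 0.257 and 0.379 against 5.66 and 5.92, and Cybb 0.114 and 0.0584 against 1.08 and 1.08. Pf4, which did not pass the test at day 2 of the timecourse, was higher here as well (0.0858 and 0.0876 CPM against 1.73 and 1.24, log2 fold change 4.05 ± 0.46).

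Among the genes called, the smallest differences were those of Laptm5, Cd53, Cd84, Cd68 and Cd14. Laptm5 was at 78.8 and 76.9 CPM in negative and 109 and 108 in positive cells (0.48 ± 0.04 (SE), edgeR adjusted p = 4.3e-22), and it made up 77.9 to 78.5% of the summed level of the set in the negative cells. The log2 fold changes of the others were 0.81 ± 0.15 for Cd53, 1.00 ± 0.24 for Cd84 and 1.59 ± 0.19 for Cd14 (1.06 and 1.28 CPM against 3.36 and 3.73). Cd68 had 3.15 and 3.09 CPM against 7.41 and 6.90. Ptprc had 0.372 and 0.292 CPM against 1.73 and 1.61, and Itgb2 0.572 and 0.584 against 3.10 and 3.07. Cx3cr1 was the gene not called (1.04 ± 0.62 (SE), edgeR adjusted p = 0.223). The summed level of the whole set was 100 and 98.7 CPM in negative and 276 and 275 CPM in positive cells. That is a 2.77-fold difference. Leaving out Lyz2 and Laptm5, a split chosen after the values were seen, left 38 genes. Their sum was 17.3 and 17.5 CPM in negative and 134 and 133 CPM in positive cells, a 7.66-fold difference.

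The same comparison under inhibitor gave 35 of 36 higher and 0 lower (26.8% of all genes called in either direction, 1890 higher and 1859 lower of 13968), with a median of 3.15. Here too only 15 genes had 10 or more counts in each of the 4 libraries, of which 15 were called higher. Of the epithelial markers, a list that holds Cdh1 itself, 6 of 6 were higher in CDH1-positive cells, with a sum of 55.2 and 56.3 CPM in negative and 164 and 168 CPM in positive cells. The fibroblast markers, with 2 higher and 1 lower of 9, summed to 6432 and 6827 CPM in negative and 6587 and 6601 CPM in positive cells. Of the pluripotency genes 4 of 4 tested were higher, with sums of 3.18 and 2.51 CPM in negative and 10.2 and 9.06 CPM in positive cells. Their part in the result was not tested.

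**Figure D3:**
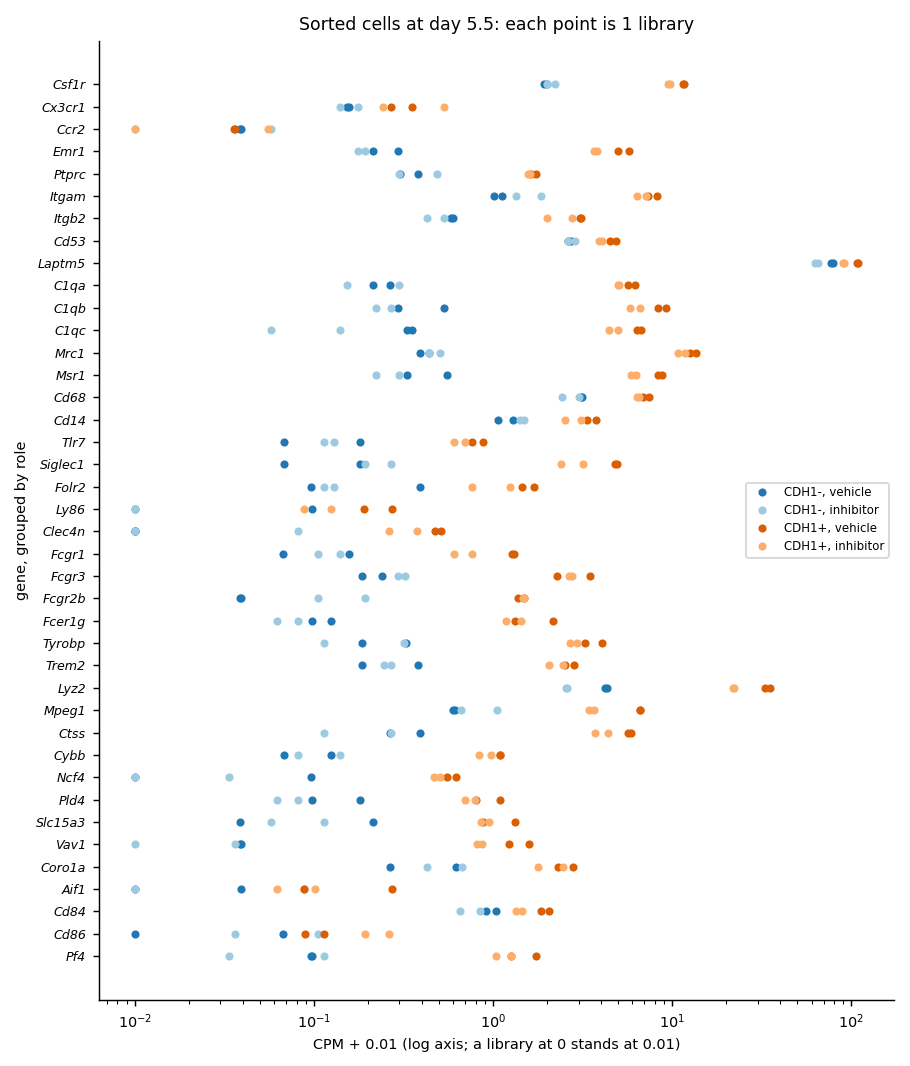
Level of the 40 genes in the 8 sorted libraries, as CPM + 0.01 on a log axis; each point is 1 library, blue for CDH1-negative and orange for CDH1-positive cells, pale for inhibitor. Orange points lie to the right of blue ones for nearly all genes, and Laptm5 lies between 63.0 and 109 CPM in both fractions.

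The macrophage genes were lower in cells with the Cdh1 virus than with the empty virus, both before and after doxycycline. The labels do not say whether the libraries of a group are separate infections. An effect of the virus and a difference between cultures therefore cannot be told apart. Nor can fewer macrophages and less RNA of these genes per macrophage. In MEFs 26 of 40 were lower with the Cdh1 virus than with the empty virus and 0 were higher, in a comparison in which 0.525% of 15044 genes were lower and 0.612% higher. All 40 log2 fold changes were below 0, with a median of -0.64, or 1.56-fold lower, against 0.01 over all genes. At day 2, 27 of 40 were lower and 0 higher (0.751% and 0.146% of all genes), and 39 of 40 values were below 0 with a median of -0.95, or 1.93-fold lower. The genes of the set were 26 of the 171 called in MEFs (15.2%) and 27 of the 135 called at day 2 (20%). The set was chosen with earlier results of these data known, so these shares are not independent of the calls. The summed level was 2001 and 2118 CPM with the empty and 1350 and 1226 CPM with the Cdh1 virus in MEFs, and 438 and 426 against 195 and 194 CPM at day 2.

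Lyz2 had 1071 and 1185 CPM with the empty and 728 and 619 with the Cdh1 virus in MEFs, and 175 and 164 against 58.3 and 56.9 at day 2 (-1.56 ± 0.08 (SE), edgeR adjusted p = 2.3e-11). Emr1 had 35.4 and 36.8 CPM against 20.2 and 18.5 in MEFs, and 14.3 and 14.2 against 5.63 and 5.12 at day 2 (-0.90 ± 0.09 (SE), edgeR adjusted p = 5.8e-07 in MEFs). Csf1r had 28.2 and 28.1 CPM against 18.5 and 16.5 in MEFs and 14.2 and 11.9 against 7.49 and 6.95 at day 2. For these 3 genes every library with the Cdh1 virus was below every one with the empty virus at the same stage.

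Of the complement chains, with the empty virus against the Cdh1 virus, C1qa had 23.1 and 26.7 CPM against 12.4 and 12.7 in MEFs and 12.4 and 13.2 against 5.73 and 4.84 at day 2. C1qb had 37.3 and 36.3 CPM against 23.4 and 23.9 in MEFs and 14.4 and 14.2 against 7.13 and 8.16 at day 2. C1qc had 37.3 and 37.5 CPM against 19.9 and 18.7 in MEFs and 16.4 and 16.9 against 6.97 and 6.89 at day 2. All 3 fell in both settings, by between 0.64 and 1.28 on the log2 scale.

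Msr1 fell by 1.08 in MEFs and 1.19 at day 2 on the log2 scale (22.9 and 22.8 CPM to 11.2 and 10.4, and 6.60 and 6.95 to 3.09 and 2.86). Mrc1 had 38.6 and 37.5 CPM against 23.2 and 21.8 in MEFs and 17.9 and 19.1 against 10.1 and 9.15 at day 2. Mpeg1 had 135 and 139 CPM against 88.0 and 87.1 in MEFs and 20.5 and 22.5 against 11.6 and 11.4 at day 2 (-0.64 ± 0.06 (SE), edgeR adjusted p = 7.0e-07 in MEFs). These genes too were lower in every library with the Cdh1 virus.

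Ctss had 64.9 and 65.7 CPM against 48.4 and 47.4 in MEFs and 12.3 and 11.6 against 5.24 and 6.11 at day 2. Tyrobp had 28.7 and 27.2 CPM against 19.8 and 16.7 in MEFs and 7.36 and 5.83 against 3.55 and 2.67 at day 2. Fcer1g had 26.7 and 27.8 CPM against 19.1 and 14.9 in MEFs and 5.00 and 5.04 against 2.51 and 2.27 at day 2. In this group of adaptor and protease genes the change was called in both settings. Trem2 had 29.3 and 28.7 CPM against 19.6 and 21.9 in MEFs and 5.96 and 5.22 against 2.25 and 2.14 at day 2, and Cybb 13.0 and 13.2 against 7.21 and 8.15 in MEFs and 3.96 and 4.03 against 2.25 and 2.02 at day 2. Laptm5, despite its separate course over doxycycline, fell in both (66.8 and 62.7 CPM to 43.5 and 43.6, -0.57 ± 0.07, and 28.5 and 27.8 CPM to 17.7 and 19.4, -0.60 ± 0.08).

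Other genes passed in only 1 of the settings. Cd68 had 57.4 and 52.7 CPM against 48.2 and 45.8 in MEFs, which missed the threshold (-0.23 ± 0.09 (SE), edgeR adjusted p = 0.385), and 9.32 and 8.03 against 4.10 and 4.81 at day 2, which passed (-0.96 ± 0.13). Cd14 passed in MEFs (60.4 and 61.3 CPM against 42.5 and 49.2) and not at day 2 (4.96 and 5.36 against 4.23 and 4.87, -0.18 ± 0.14 (SE), edgeR adjusted p = 0.734). Itgb2 (16.1 and 18.0 CPM against 13.4 and 12.1, -0.41 ± 0.11) passed only at day 2 (6.44 and 5.58 against 2.60 and 2.54, -1.22 ± 0.15), and Ptprc (18.3 and 18.6 CPM against 14.1 and 12.4, 5.16 and 5.44 against 3.09 and 2.33) passed in both. Whether the effect of the virus differed between MEFs and day 2 was not tested. Pf4 did not pass in either (1.46 and 1.10 CPM against 0.483 and 1.00, 2.00 and 1.48 against 0.846 and 1.02).

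The log2 fold changes of the 9 fibroblast markers lay between -0.18 and 0.12 in MEFs and between -0.17 and 0.16 at day 2, and their sums were 27281 and 28475 CPM with the empty and 29403 and 29054 CPM with the Cdh1 virus in MEFs. At day 2 with the Cdh1 virus 4 of 6 pluripotency genes were lower as well, with a sum of 6.84 and 4.86 CPM with the empty and 0.846 and 1.21 CPM with the Cdh1 virus, and the part of this difference in the result was not tested. The count in MEFs depended on single libraries: it was 17 without replicate 1 and 16 without replicate 2 of the empty-virus MEFs, and 18 without replicate 2 of the Cdh1-virus MEFs, the library with conflicting labels. With limma on log2(TPM + 0.1) it was 12, and 0 genes were higher in each of these fits.

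**Figure D4:**
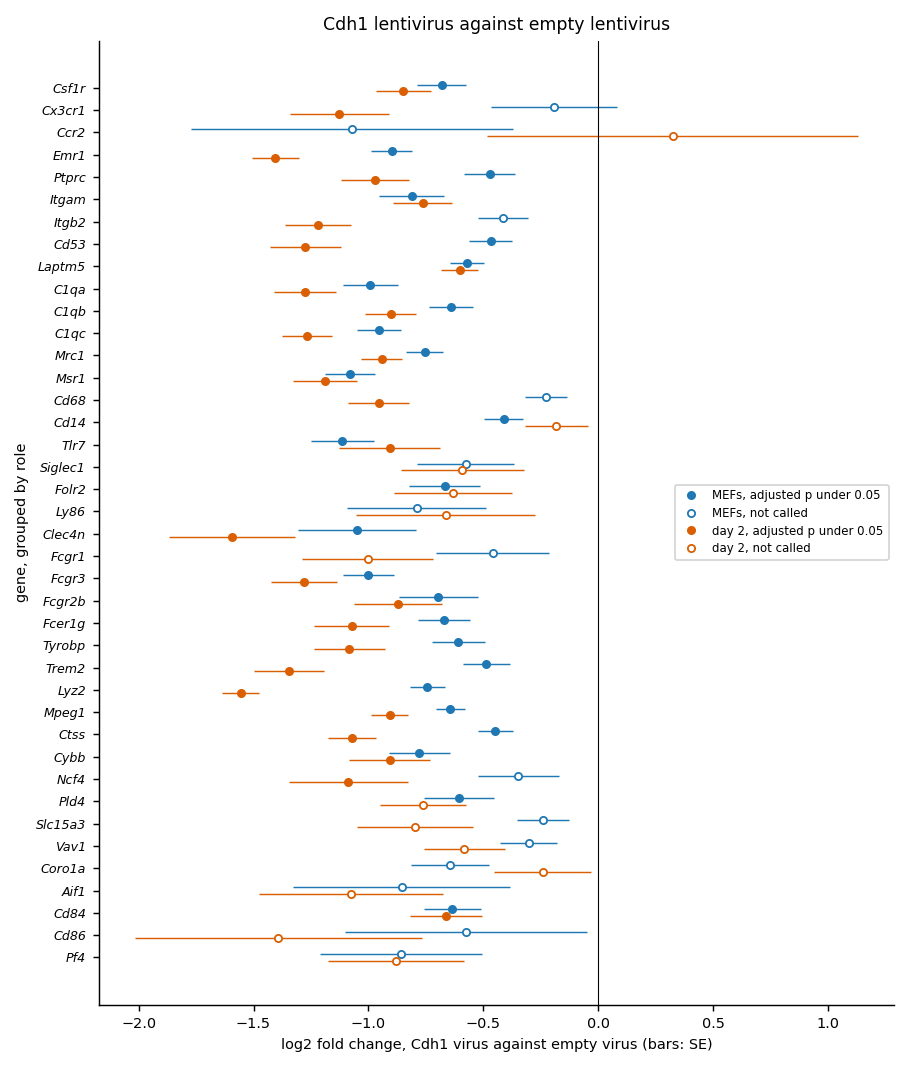
Log2 fold change (horizontal axis) of the 40 genes, Cdh1 virus against empty virus, in MEFs (blue) and at day 2 of doxycycline (orange), with SE bars; filled points passed an adjusted p under 0.05. All 40 blue points and 39 of the 40 orange points lie left of 0, the exception being Ccr2.

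With SGC0946 Mpeg1 was lower in 7, Laptm5 in 6 and Lyz2 in 5 of 8 comparisons and Itgam was higher in 4, while many of the set were not called. Of the 8 comparisons of inhibitor with DMSO, the 3 day 4 windows share their 2 control libraries. At day 2 of the timecourse 1 gene was higher and 3 lower of 39, where 17.8% of all genes were called. In the early window 2 were higher and 3 lower (5.63% called), in the mid window 10 higher and 4 lower (27.4%), and in the full window 6 higher and 7 lower (34.8%). The share of the set called was 10.3% at day 2, 12.8% in the early, 35.9% in the mid and 33.3% in the full window, so at day 2 and in the full window it was below that of all genes. In the lentivirus cells 6 of 40 were lower and 0 higher with the empty virus (6.73% of all genes called), and 2 lower and 1 higher, Msr1 (0.51 ± 0.14), with the Cdh1 virus (5.05%). Several of these counts rest on single libraries. At day 2 the count was 2 without replicate 2 of the controls and 2 without replicate 2 of the treated cells. In the early window it was 3 without replicate 1 or 2 of the controls or replicate 1 of the treated cells. With the empty virus it was 2 without replicate 1 of either group, and with the Cdh1 virus 1 without replicate 2 of the controls.

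Mpeg1 was the gene most often called lower, in 7 of the 8 comparisons. It went from 6.42 and 6.67 CPM to 4.74 and 5.22 at day 2 (-0.39 ± 0.10 (SE), edgeR adjusted p = 0.00451). At day 4 it went from 16.6 and 17.7 CPM to 13.1 and 11.9 in the early, 12.7 and 14.0 in the mid and 9.57 and 10.8 in the full window (-0.75 ± 0.08 (SE), edgeR adjusted p = 4.5e-10 in the full window). In the timecourse every treated library was below every control of its day. In the lentivirus cells it went from 20.5 and 22.5 CPM to 12.7 and 12.7 with the empty (-0.76 ± 0.08 (SE), edgeR adjusted p = 3.8e-06) and from 11.6 and 11.4 to 7.48 and 7.60 with the Cdh1 virus (-0.60 ± 0.09). In CDH1-positive cells it went from 6.61 and 6.61 CPM to 3.65 and 3.42 (-0.90 ± 0.14 (SE), edgeR adjusted p = 4.8e-08). The exception was the CDH1-negative fraction, with 21 and 20 counts in control and 44 and 25 in treated libraries (0.53 ± 0.29 (SE), edgeR adjusted p = 0.207). The day 2 call was lost without replicate 2 of the day 2 controls, without replicate 1 of the treated cells and with limma on log2(TPM + 1), while the other 6 held under 11 of 11 alternatives each.

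Lyz2 was lower in 5 of the 8. In the early window it went from 63.2 and 61.5 CPM to 46.1 and 47.3 (-0.42 ± 0.04 (SE), edgeR adjusted p = 1.1e-08), and in the full window to 54.6 and 54.6 (-0.19 ± 0.04). In CDH1-positive cells it went from 32.8 and 35.2 CPM to 21.7 and 22.1 (-0.63 ± 0.06 (SE), edgeR adjusted p = 4.0e-15), and in CDH1-negative cells from 4.29 and 4.23 to 2.59 and 2.56. With the empty virus it went from 175 and 164 CPM to 135 and 133, a call lost in 5 of 11 alternatives, which were both limma fits and the fits without replicate 1 of the controls or replicate 1 or 2 of the treated cells. Lyz2 had 64.1 and 67.5 CPM in the mid window, which did not pass (0.08 ± 0.04). At day 4 it was thus lower in the early and full windows and not called in the mid window. Day 2 of the timecourse, also with inhibitor on days 0 to 2, was not called either (log2 fold change 0.16). Nor was day 2 with the Cdh1 virus (between -0.01 and 0.15 over 11 alternatives). The difference between windows was not tested.

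Laptm5 was lower in 6 of the 8 and higher in 1. It went from 42.6 and 44.7 CPM to 37.1 and 36.3 at day 2, and from 77.5 and 76.2 to 61.8 and 65.4 in the mid window (-0.27 ± 0.04 (SE), edgeR adjusted p = 4.1e-06). In the early window it rose to 87.5 and 88.5 CPM (0.20 ± 0.04 (SE), edgeR adjusted p = 0.00151), and in the full window it had 78.3 and 73.6 (-0.02 ± 0.04). Both sorted fractions fell, from 78.8 and 76.9 CPM to 64.9 and 63.0 and from 109 and 108 to 90.6 and 90.3 (-0.28 ± 0.04 (SE), edgeR adjusted p = 1.2e-09 in negative cells). Without replicate 2 of the day 4 controls the rise in the early window no longer passed. With the empty virus the call was lost without replicate 1 of the controls or of the treated cells, and with the Cdh1 virus without replicate 2 of the controls.

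Emr1 was lower in 4 comparisons, the early (-0.37 ± 0.09 (SE), edgeR adjusted p = 0.00419) and full windows, CDH1-positive cells (5.71 and 4.99 CPM to 3.80 and 3.65) and the empty-virus cells (14.3 and 14.2 CPM to 9.82 and 10.2). Itgam was higher in 4, namely day 2, the mid and full windows and CDH1-negative cells (0.58 ± 0.09 (SE), edgeR adjusted p = 1.9e-06 in the full window). C1qa rose in the mid and full windows, from 21.7 and 20.3 CPM to 32.1 and 28.4 in the mid and 29.8 and 28.6 in the full window (0.52 ± 0.07 (SE), edgeR adjusted p = 1.7e-07 in the mid window). C1qb rose in the 3 windows, with 30.5 and 29.7 CPM in controls, 37.4 and 33.6 in the early, 38.9 and 41.5 in the mid and 34.5 and 32.7 in the full window. In the same day 4 libraries C1qb was thus higher and Mpeg1 lower. The third chain gene, C1qc, was lower in 4 comparisons, namely day 2 of the timecourse (5.55 and 5.97 CPM to 4.92 and 4.25, -0.33 ± 0.11 (SE), edgeR adjusted p = 0.0382), the empty-virus cells (-0.44 ± 0.11) and both sorted fractions, and higher in the mid window (0.22 ± 0.08). Of 11 alternatives each, the calls at day 2 and with the empty virus were lost in 4, that in CDH1-positive cells in 4, that in CDH1-negative cells in 1 and that in the mid window in 7. Csf1r was called once, in CDH1-positive cells (-0.27 ± 0.10).

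The other genes called in the mid window were Cx3cr1 (0.97 ± 0.27), Itgb2 (0.39 ± 0.13), C1qc (0.22 ± 0.08), Fcgr2b (0.27 ± 0.09), Slc15a3 (0.54 ± 0.19), Vav1 (0.51 ± 0.19) and Coro1a (0.41 ± 0.13), all higher, and Mrc1 (-0.16 ± 0.05) and Cd68 (-0.21 ± 0.08), lower. The other genes called in the full window were Cx3cr1 (0.86 ± 0.26), Fcgr2b (0.29 ± 0.09) and Coro1a (0.35 ± 0.12), higher, and Tlr7 (-0.97 ± 0.27), Cd84 (-0.40 ± 0.14), Siglec1 (-0.35 ± 0.12) and Mrc1 (-0.22 ± 0.05), lower. In the mid window 14 genes were called, but only 5 to 8 after leaving out any of its 4 libraries in turn. That count was 7 and 8 without replicate 1 or 2 of the controls, 6 and 5 without replicate 1 or 2 of the treated cells, and 6 with DESeq2. In the full window 13 were called, 8 and 7 without replicate 1 or 2 of the controls, 8 without replicate 1 of the treated cells, and 7 with DESeq2.

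In the CDH1-positive cells of the sort 12 of 36 genes were lower with the inhibitor and 0 higher, while 24 did not pass (10.5% and 8.33% of all genes), 34 of 36 values below 0 and a median of -0.35. The 12 were Lyz2, Laptm5, Mpeg1, Siglec1 (-0.81 ± 0.16), Msr1 (-0.49 ± 0.12), C1qb (-0.49 ± 0.12), C1qc (-0.46 ± 0.13), Ctss (-0.53 ± 0.14), Emr1 (-0.52 ± 0.14), Fcgr1 (-0.91 ± 0.29), Vav1 (-0.75 ± 0.28) and Csf1r. The sum over the 40 genes went from 276 and 275 CPM to 217 and 215 CPM. The count was 7 without replicate 1 and 7 without replicate 2 of the controls, 4 with DESeq2 and 3 with limma on log2(TPM + 0.1), and 0 genes were higher in each. Epithelial markers rose in the same libraries, 5 of 6 being called, from 164 and 168 CPM to 215 and 216 CPM, and their part in the result was not tested. In CDH1-negative cells 3 of 36 were lower (Laptm5, Lyz2 and C1qc) and Itgam was higher (18.7% of all genes called), and C1qc had 12 and 11 counts in control and 2 and 5 in treated libraries.

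Of the 36 genes, Mpeg1 was the one called for a difference in the inhibitor's effect between the fractions, with a difference of effects, CDH1-positive minus CDH1-negative, of -1.43 ± 0.31 (SE), edgeR adjusted p = 0.0109, where 0.186% of 13968 genes were called. This rests on few counts in the negative cells. It was lost with DESeq2, with both limma fits, and without either negative control library or replicate 1 of the treated negative cells. Between the 2 viruses no gene of any kind was called by edgeR for a difference in the inhibitor's effect (0% of 15044 genes, with 1126 at an unadjusted p under 0.05, of which 11 belonged to the set). DESeq2 and both limma fits also called 0 of the 40.

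**Figure D5:**
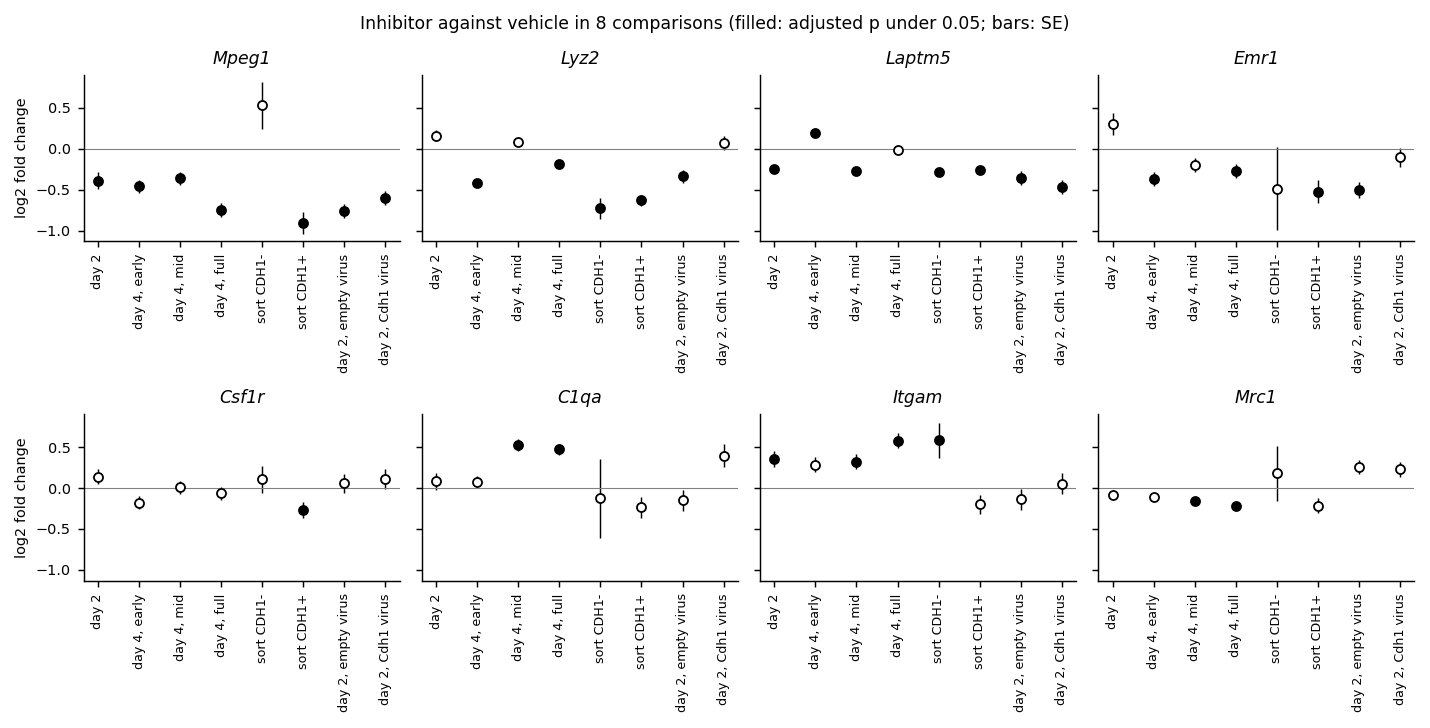
Log2 fold change (vertical axis) of inhibitor against DMSO for 8 genes in the 8 comparisons, with SE bars; filled points passed an adjusted p under 0.05. Mpeg1 is filled and below 0 in 7 comparisons, Laptm5 is filled and below 0 in 6, and Itgam is filled and above 0 in 4.

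ESCs had little RNA of these genes. Against empty-virus MEFs of the same experiment 38 of 40 were lower and 1 higher (44.1% and 44.5% of all genes), with a median of -4.45 and a summed level of 72.2 and 74.8 CPM. Mpeg1 had 2.52 and 2.19 CPM (-5.86 ± 0.09 (SE), edgeR adjusted p = 2.9e-25), Csf1r 0.538 and 0.562, Ptprc 0.235 and 0.325 and Cd14 0.840 and 1.01. Cx3cr1 had 0 and 0 counts, at least 12.9-fold lower than in the MEFs taking 3 counts per library as the floor, and with it at that bound the median is -4.34. Coro1a, an actin-binding protein, was the gene that was higher (1.31 ± 0.14 (SE), edgeR adjusted p = 4.9e-09) and the second of the set per length in ESCs, with 12.0 and 12.7 TPM after Lyz2 with 23.0 and 25.9 TPM. Pld4 fell least among the called genes (-0.99 ± 0.15).

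Other genes of the macrophage programme, from lists of growth factors, transcription factors and surface proteins, were read beside the set. Sfpi1, encoding PU.1, had 4.89 and 4.57 CPM in MEFs, 1.02 and 1.44 at day 2 and 3.60 and 3.47 at day 4 (-1.94 ± 0.18 (SE), edgeR adjusted p = 1.9e-12 at day 2). In the sort it had 0.200 and 0.0292 CPM in CDH1-negative and 2.17 and 2.09 in CDH1-positive cells (4.17 ± 0.39 (SE), edgeR adjusted p = 4.3e-16). With so few counts in CDH1-negative cells, Sfpi1 could pass the filter through the CDH1-positive libraries alone. Its difference here is in part set by the filter. With the Cdh1 virus Sfpi1 was lower at day 2 (-1.09 ± 0.21 (SE), edgeR adjusted p = 0.00694) and in MEFs it missed the threshold (-0.36 ± 0.14). Of the 10 transcription factors tested, 7 fell and 0 rose at day 2 (34% and 40.4% of all genes). In CDH1-positive cells 4 were higher and 1 lower (12.8% and 13.8% of all genes). At day 4 against MEFs 6 of the 10 were lower and 4 higher, with a median of -0.47. Over all genes 41% were lower and 41.2% higher, so the number of higher factors was near that share. Maf, which acts in mature macrophages, was among the higher ones (1.13 ± 0.09), as was Cebpa (0.81 ± 0.09).

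The ligands of CSF1R were expressed by these cultures. Csf1 had 468 and 467 CPM in MEFs, 244 and 250.3 at day 2 and 182 and 181 at day 4, so it fell at both (-1.36 ± 0.03 (SE), edgeR adjusted p = 1.2e-32 at day 4). Il34, the second ligand, rose from 1.50 and 1.58 CPM in MEFs to 5.92 and 5.30 at day 2 and 27.4 and 26.7 at day 4 (4.14 ± 0.10 (SE), edgeR adjusted p = 7.8e-33 at day 4). Neither passed the test with the Cdh1 virus (0.08 ± 0.06 and 0.22 ± 0.22 in MEFs). In the sort Csf1 had 630.0 and 629.9 CPM against 657 and 679 (0.08 ± 0.02 (SE), edgeR adjusted p = 0.00547), and Il34 did not pass (0.14 ± 0.06). Csf2, the GM-CSF gene, was at 0 in both MEF libraries.

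Of 31 further surface and effector genes, 25 were tested in the timecourse. At day 2, 19 of them fell and 1 rose (34% and 40.4% of all genes). At day 4, 13 were lower and 6 higher than in MEFs (41% and 41.2% of all genes). In the sort 19 of 20 tested were higher in CDH1-positive cells and 0 were lower (12.8% and 13.8% of all genes). Genes with few counts in CDH1-negative cells could pass the filter through the CDH1-positive libraries alone, so their difference is in part set by the filter. With the Cdh1 virus 9 of 25 were lower in MEFs and 10 of 25 at day 2 (0.525% and 0.751% of all genes), with 0 higher in either. Stab1, the scavenger receptor stabilin-1, had 0.629 and 0.584 CPM in CDH1-negative and 11.8 and 10.2 in CDH1-positive cells (4.17 ± 0.17 (SE), edgeR adjusted p = 5.8e-42). The inhibitory receptor gene Lilrb4 had 0.200 and 0.263 CPM against 4.13 and 4.86. Both therefore had the pattern of the set in the sort. The lists were drawn up with earlier results of these data known, so their counts are not independent of the pattern of the set.

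Lists of genes tied to particular macrophage states differed widely in level. The alternative activation list had 8 of 10 genes under 1 CPM in each of the 34 MEF and reprogramming libraries, and its highest value was 1.32 CPM, for Arg1. The class II antigen presentation list summed to between 2.06 and 10.2 CPM over those libraries. Of the inflammatory list 6 of 12 genes stayed under 1 CPM, and its highest value, 491 CPM, was that of the prostaglandin synthase gene Ptgs2, which fibroblasts also express. The lipid-associated and lysosomal list had 0 of 16 genes under 1 CPM throughout and summed to between 3818 and 11933 CPM, with Spp1 (osteopontin) the highest at 3251 CPM. Its sum lay between 6762 and 7946 CPM over the 8 sorted libraries, CDH1-negative ones included, and between 1731 and 1883 CPM in ESCs. Its level therefore cannot be read as that of macrophages alone. The macrophage chemokine list had 0 of 10 genes under 1 CPM throughout and summed to between 122 and 314 CPM, with Ccl2, a monocyte attractant, the highest at 178 CPM. Of the microglia and osteoclast list 5 of 9 genes stayed under 1 CPM, and its sum lay between 51.2 and 253 CPM, with the cathepsin K gene Ctsk the highest at 176 CPM. Cd163, a receptor of mature tissue macrophages, had 0 and 1 counts in untreated MEFs.

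Across the 14 timecourse libraries the genes of the set followed a shared course with a few exceptions. Pearson's r between each gene's log2(CPM + 0.5) and the mean z-score of the 39 tested genes had a median of 0.90, with 28 of 39 above 0.8, where each gene is itself part of that mean. Fcer1g (0.995), Trem2 (0.991) and Emr1 (0.985) were nearest to it. Pf4 (-0.56), Laptm5 (0.07), Msr1 (0.49) and Mrc1 (0.58) were farthest. Among 14434 other genes the nearest were Pdlim2 (0.994), Fam176b (0.994), Ddah2 (0.993), Cdon (0.993), Eln (0.992), Dkk3 (0.991), Mfap2 (0.991), Renbp (0.990), Camk1 (0.990) and Col8a2 (0.989). The group means of Eln, the elastin gene, were 312, 6.23 and 96.8 CPM in MEFs, at day 2 and at day 4, and those of Mfap2, a protein of elastic fibres, were 65.6, 9.50 and 33.3 CPM. The 14 libraries are 7 groups of 2 with one scaling, and these values are a description.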

How the data were processed

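PolyA-selected RNA was sequenced in 36 libraries, 18 groups of 2. Per the submitters' processing notes, Trimmomatic, Bowtie and RSEM 1.2.4 were used with the builds mm9 and hg18. The deposited tables hold RSEM expected counts and TPM values per gene from the authors, and only mouse genes are in them. The kit is not stated to be stranded, so overlapping and antisense genes cannot be separated.

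Expected counts were rounded and fitted in R 4.3.3 with edgeR 4.0.16 (robust quasi-likelihood test, TMM factors, filterByExpr with a minimum count of 10 and a minimum total of 15). There was 1 coefficient per group, and the timecourse, the sort and the lentivirus plus ESC libraries were fitted separately. Adjusted p-values are Benjamini-Hochberg over all genes tested, with a threshold of 0.05. SEs were taken from the log2 fold change and its F statistic. Tested on simulated counts for day 2 against MEFs over 14473 genes, the script recovered 64% of genes changed 1.2-fold and 100% of those changed 2-fold. For day 2 against MEFs with the empty virus, over 15044 genes, it recovered 18% and 98%, with 8 false calls against 5 in the timecourse.

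The 40 genes and all other lists were chosen with earlier results of these data known. Values in every library are given for 20 of the genes by a fixed list, and in each comparison for the 6 with the smallest p and for those called against the majority, as levels or fold changes. Alternatives were DESeq2 1.42.0, its size factors, no low-count filter, limma 3.58.1 on log2(TPM + 1) and log2(TPM + 0.1), the compared groups alone, the replicate number as a block, and leaving out each library. Some genes of the other lists, and 1 whole list, are not reported here.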

Additional observations from a re-analysis of the deposited data

Results flagged for a closer look

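The inhibitor's effect on Mpeg1 differed between the sorted fractions by an interaction term. The log2 fold change with SGC0946 was -0.90 ± 0.14 in CDH1-positive and 0.53 ± 0.29 in CDH1-negative cells, a difference of -1.43 ± 0.31 (SE), edgeR adjusted p = 0.0109. The difference lay between -1.72 and -0.74 over 15 alternatives and missed the threshold in 6 of them. The negative libraries held 21 and 20 counts of Mpeg1 in controls and 44 and 25 in treated cells.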

How the results depend on the processing

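Counts of called genes are given for both directions together. With DESeq2 the count was 7 instead of 13 for the full window, 6 instead of 14 for the mid window, 4 instead of 12 for the inhibitor in CDH1-positive cells, and 0 instead of 1 for the difference between fractions. With limma on log2(TPM + 0.1) it was 9 instead of 4 for the inhibitor at day 2, 8 for the mid window, 3 for CDH1-positive cells, 3 instead of 6 for the inhibitor with the empty virus, and 12 instead of 26 for Cdh1 against empty virus in MEFs. With both limma fits the difference between fractions gave 0. Without the low-count filter the inhibitor at day 2 gave 7. Leaving out 1 library at a time gave 2 to 4 at day 2, 3 to 5 in the early, 5 to 8 in the mid and 7 to 11 in the full window, 7 to 8 in CDH1-positive cells, 0 to 1 for the difference between fractions, 2 to 6 with the empty and 1 to 4 with the Cdh1 virus, and 16 to 18 for the virus in MEFs. It gave 36 to 37 for day 2 and 29 to 31 for day 4 against MEFs, 35 to 36 for the sort and 21 to 22 for the virus at day 2. No gene that was called turned its direction, and 73 of 395 gene calls were lost in at least 1 such fit. The cause of these shifts was not tested. Replicate numbers are shared between groups only as numbers: the correlation of replicate differences between groups lay between -0.0779 and 0.0886 in the timecourse, -0.0747 and 0.0405 in the sort, and -0.160 and 0.142 in the lentivirus and ESC libraries. With the replicate number as a block the count was 11 in CDH1-positive cells, 6 in the early window, 3 for the inhibitor in CDH1-negative cells and 24 for the virus at day 2, and it stayed the same in the other comparisons. Few counts limit the comparisons with CDH1-negative cells, where only 15 of 36 genes had 10 counts in each library, although the library totals lay within the range of the timecourse.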
